A study of Saccharomyces cerevisiae with 18 samples.

Results

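RNA taken in the first minutes after glucose-depleted yeast entered fresh medium was compared with RNA of the same cultures hours later, when the cells were growing. The early phase consisted of the arrays at 3, 7.5 and 15 min after inoculation and the later phase of those at 110, 150 and 300 min. With cultures a and b at each time, this gave 6 arrays a phase and 12 of the 18 arrays of the series. The 0 min arrays were not used, and the 30 and 60 min arrays served only to describe the time between the phases. All samples were wild-type Saccharomyces cerevisiae, labelled as strain BY4742 and in their titles as mating type A, depleted of glucose and inoculated into synthetic complete medium with glucose. Each array carried the RNA of 1 culture beside that of a wild-type pool used as the reference throughout, and a value is the log2 ratio of sample to pool, with the spots of a gene averaged. A gene that is equally abundant in sample and pool has a ratio of 0.

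The labels were checked against genes that the genotype fixes. The 7 genes specific to a cells had medians of 2.97 to 4.03 over the 12 arrays and the 4 genes specific to alpha cells medians of -5.00 to -4.37. Transcripts of a cells were thus far above the pool and those of alpha cells far below it. These values go with the mating type of the titles, whereas the strain name BY4742 belongs to an alpha strain. The paper names BY4741 for its MATa strains. None of these 11 genes differed between the phases at the thresholds used here. The 22 genes of meiosis and sporulation had medians between -0.16 and 0.11 on all 12 arrays. Of the gene spots of an array, 98.0 to 99.3% were above the local background, and the correlation of duplicate spots was 0.979 to 0.999. Culture a was in Cy3 on all 12 arrays, whereas culture b was in Cy5, and culture and dye cannot be told apart. The log2 ratios of an early array had an SD of 0.85 to 0.96 and those of a later array an SD of 0.30 to 0.40.

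Yeast that has used up its glucose stops dividing, lives on ethanol, acetate and reserves through respiration, and expresses genes for stress resistance and for the uptake of scarce nutrients. When glucose returns, signalling through protein kinase A rises and the Snf1 kinase, which derepresses glucose-repressed genes, is turned off. Respiratory and gluconeogenic genes are then repressed, and genes for ribosome assembly and fermentation are induced. Cells re-enter the division cycle only after a lag in which they rebuild ribosomes and cell mass, so that early arrays describe the lag and later arrays a population in which many cells divide.

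Among 5272 genes tested, 649 (12.3%) were higher early and 655 (12.4%) were lower early. A gene was called at a fold difference over 1.7 and an adjusted p under 0.01 in limma, where p is adjusted by the Benjamini-Hochberg procedure over all genes tested. Differences are given as early minus later on the log2 scale with the standard error of the fit. More than 4-fold differences were found for 151 genes higher early and for 37 genes lower early, although the totals were nearly equal. Among the 1304 genes called, 1277 had no overlap between the 6 early and the 6 later arrays, against 3003 of all genes tested. The median difference of all genes was 0.0041. Ratios are relative to the bulk of the mRNA of an array, so that fewer cells with a transcript and less transcript per cell cannot be told apart.

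The balance of the directions depended on the scale. Spots of external control RNA had median log2 ratios of 0.30 to 0.73 on the early arrays and of 0.048 to 0.30 on the later arrays. With each array shifted to set these spots to 0, the median difference of all genes was -0.29, 395 genes were higher early and 1213 lower early, and the share of higher calls went from 49.8% to 24.6%. Directions given here are relative to the bulk of the genes. Between the cultures the early minus later differences correlated at 0.97 across genes, and genes are no independent replicates. Among the list medians, those of glycolysis and of the ribosomal proteins were the furthest apart between the cultures. A term for a difference between the cultures passed the thresholds for 0 genes (0.0%), and 253 genes had an unadjusted p under 0.05 in that limma fit. Arrays at successive times of 1 culture are not independent, and p-values treat the 12 arrays as if they were.

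**Figure D1:**
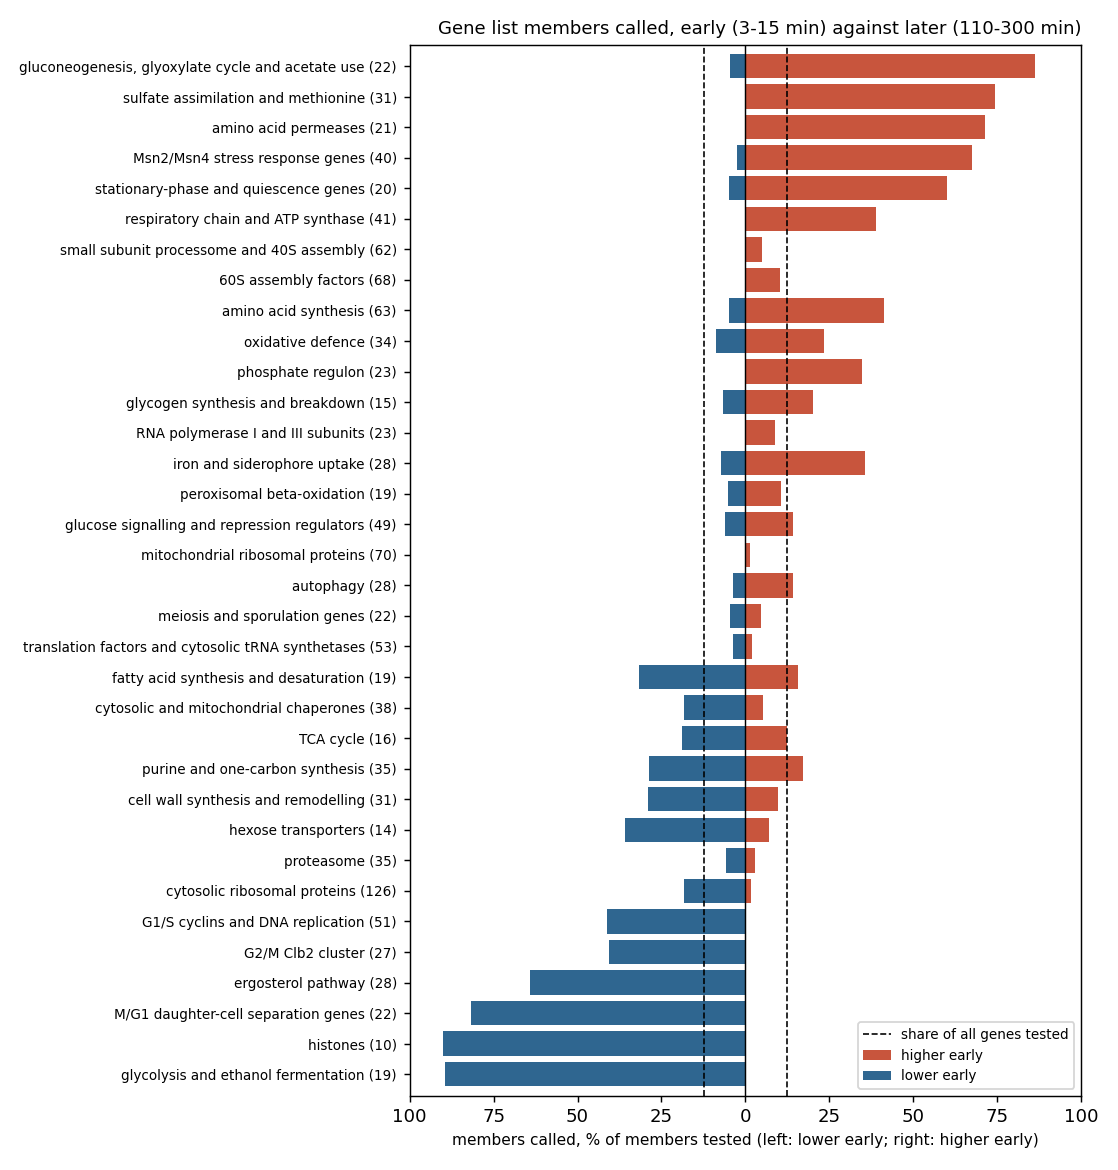
Share of the tested members of each gene list that were called higher (right, red) or lower (left, blue) early than later, for the lists with 10 or more tested members (number in parentheses), ordered by their median difference. Dashed lines mark the shares over all genes tested, 12.3% and 12.4%. Gluconeogenesis had 19 of 22 members higher early, and glycolysis 17 of 19 and the histones 9 of 10 members lower early.

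Genes for growth on non-fermentable carbon were the list with the highest median, 2.10. Of its 22 members, which cover gluconeogenesis, the glyoxylate cycle and the use of acetate, 19 were higher early and 1 was lower early. CRC1, the carnitine carrier of the mitochondrial membrane, had log2 ratios of 4.34 to 5.2 (median 4.64) on the early arrays and 0.013 to 1.26 (median 0.61) on the later arrays, with a difference of 4.07 ± 0.23 (adjusted p = 4.41e-09 in limma). The carnitine acetyltransferases YAT2 and CAT2, which make acetyl groups transportable, differed by 3.33 ± 0.14 and 2.83 ± 0.19. The early and later arrays were apart for all these genes, as the rule that named them required.

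The key enzymes of gluconeogenesis were already falling within the early phase. PCK1, the phosphoenolpyruvate carboxykinase, ran at 1.06 to 3.02 (median 2.03) on the early arrays and -0.044 to 0.29 (median 0.035) on the later arrays. Its mean was 2.98 at 3 min and 1.07 at 15 min, a change of -1.91 (adjusted p = 3.93e-05 in limma). FBP1, the fructose-1,6-bisphosphatase, went from 2.42 to 0.99 between these times, and the succinate-fumarate carrier SFC1 from 3.51 to 2.07. Both phases stayed apart, with early minus later differences of 1.96 ± 0.31 for PCK1 and 1.79 ± 0.24 for FBP1. The member that was lower early was ADH2, named after its value was seen. It encodes the glucose-repressed alcohol dehydrogenase, whose sequence is close to that of ADH1, and the array values do not show how far its probe also reads ADH1.

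Glycolysis and ethanol fermentation went the other way, with a median of -2.01, 0 members higher early and 17 of 19 lower early. PGK1, the phosphoglycerate kinase, had ratios of -3.93 to -2.73 (median -3.33) on the early arrays and -0.10 to 0.17 (median -0.049) on the later arrays, a difference of -3.36 ± 0.15 (adjusted p = 5.48e-10 in limma). The hexokinase HXK2, which is the main glucose-phosphorylating enzyme on glucose, ran at -3.21 to -2.12 (median -2.57) on the early arrays and -0.0016 to 0.14 (median 0.087) on the later arrays, a difference of -2.70 ± 0.14. TPI1, the triosephosphate isomerase, differed by -2.08 ± 0.22 and the minor pyruvate decarboxylase PDC6 by -1.44 ± 0.25. No early array of PGK1 or HXK2 reached the range of the later arrays, which the rule that named the largest differences required. Glycolytic genes are among the most abundant of yeast, and 12 of the 19 were outside the measurable range on 3 or more arrays of a phase, mostly through spots above the saturation limit. Among the 7 that were measured, 6 were lower early. The list median was -2.34 in culture a and -1.44 in culture b, with 16 and 15 members lower early in fits of each culture alone.

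The hexose transporters were split. HXT5, a transporter of resting and slowly growing cells, was the only one of 14 tested that was higher early, with 2.38 to 2.89 (median 2.49) on the early arrays and -0.44 to 0.75 (median -0.083) on the later arrays and a difference of 2.54 ± 0.16. Lower early were 5, among them the low-affinity transporter HXT1 (-1.24 ± 0.14) and the high-affinity transporter HXT4 (-1.48 ± 0.093). HXT9 (-1.52 ± 0.062) and HXT11 (-1.38 ± 0.08) differed alike, but their sequences are nearly identical and their probes may read both.

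In the trehalose list, genes for breakdown and for synthesis were on opposite sides. The trehalases ATH1, NTH1 and NTH2 were higher early, by 1.56 ± 0.095, 1.22 ± 0.087 and 1.38 ± 0.08. NTH1, the main neutral trehalase, ran at 0.66 to 1.14 (median 1.02) on the early arrays and -0.36 to -0.076 (median -0.27) on the later arrays. Of the synthase complex, the regulatory subunit TPS3 was lower early at -1.40 ± 0.11 and the synthase TPS1 at -0.78 ± 0.095. TPS2, the phosphatase, and TSL1, the other regulatory subunit, had differences of -0.61 ± 0.11 (adjusted p = 1.85e-04 in limma) and -0.41 ± 0.12 (adjusted p = 0.0061 in limma), both under the fold threshold. The 4 synthesis genes also had negative medians on the later arrays, -0.66 for TPS1, -0.73 for TPS2, -0.69 for TSL1 and -0.21 for TPS3. The TPS1 call was the least firm. It was lost when the 7.5, 110 or 300 min arrays were left out, and on omission of the array of culture a at 7.5 min (-0.75) or of culture b at 110 or 300 min (-0.75 and -0.72).

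Glycogen genes moved less. The glycogen synthases GSY1 and GSY2 differed by 0.40 ± 0.09 and 0.41 ± 0.15 and were not called. Of 15 members tested 3 were higher early and 1 lower early, beside 12.3% and 12.4% of all genes. The counts became 2 and 3 with the external control scaling. Higher early were the branching enzyme GLC3 (0.83 ± 0.085) and the phosphatase-targeting subunits GAC1 (1.5 ± 0.20) and GIP2 (1.14 ± 0.21). The GLC3 call was lost with that scaling (0.54), without the 15 min arrays (0.72) and between 7.5 and 110 min alone (0.76). The phosphoglucomutase PGM1, which connects glucose 6-phosphate with glucose 1-phosphate, was lower early, at -3.43 to -2.99 (median -3.18) on the early arrays and -0.14 to 0.005 (median -0.049) on the later arrays and a difference of -3.13 ± 0.07 (adjusted p = 2.04e-12 in limma). It had the third largest difference of the genes lower early that were named by rule, after the HO gene and PGK1.

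Respiratory genes were high at 3 min and came down within the early phase. Of 41 genes of the respiratory chain and ATP synthase 16 were higher early and 0 lower early, with a median of 0.68. With the arrays scaled to the external controls, 9 were higher early. The list median went through 1.07, 0.54 and 0.062 over the 3 early times, and lay at -0.015 at 110 min. In the comparison of 15 with 3 min 27 of the 41 were lower at 15 min and 0 were higher, beside 119 (2.26%) lower and 42 (0.797%) higher among all genes tested. COX9, a subunit of cytochrome c oxidase, had means of 2.19, 1.86 and 0.96 at 3, 7.5 and 15 min and of -0.051 at 110 min. QCR9, of the cytochrome bc1 complex, went through 2.0, 1.5 and 0.93. Pooling the 3 times thus hides a steep fall for this list, and an early minus later difference such as 1.80 ± 0.22 for COX9 is an average over it.

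Other respiratory genes remained well above the pool at 15 min. CYC7, the cytochrome c isoform of low oxygen and stress, ran at 1.49 to 2.24 (median 1.55) on the early arrays and -0.37 to -0.12 (median -0.25) on the later arrays. Its means were 2.17, 1.5 and 1.55 at the 3 early times (15 against 3 min adjusted p = 0.0022 in limma, under the fold threshold). NDE2, an external NADH dehydrogenase, had 1.75 at 3 min and 1.90 at 15 min, and HAP4, the regulatory subunit of the activator of respiratory genes, 1.30 and 1.18. The differences were 1.98 ± 0.13, 1.55 ± 0.10 and 0.88 ± 0.11, and the HAP4 call was lost with the external control scaling (0.58) and between 7.5 and 110 min alone (0.70). Members of the TCA cycle had no common direction. Of 16 tested 2 were higher early and 3 lower early, beside 12.3% and 12.4% of all genes. CIT3 (1.32 ± 0.086) and SDH4 (1.06 ± 0.23) were higher early, IDH2 (-0.82 ± 0.17) and LPD1 (-0.80 ± 0.11) lower early, and CIT1, the main citrate synthase, had 0.73 ± 0.14 and missed the fold threshold. Of these calls, that of IDH2 was lost in either culture alone and without the 3 min array of culture a (-0.73). The same held for the 7.5 min (-0.76) or the 150 min (-0.73) array of culture b. That of LPD1 was lost without the 15 min array of culture a (-0.74), in culture a alone and with 1 loess curve per array. The LPD1 call was also lost without the 7.5 min or the 15 min arrays. That of SDH4 was lost in culture b alone, without the 3 min arrays (0.71) and with the external control scaling (0.76), which left 1 member higher early and 5 lower early.

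**Figure D2:**
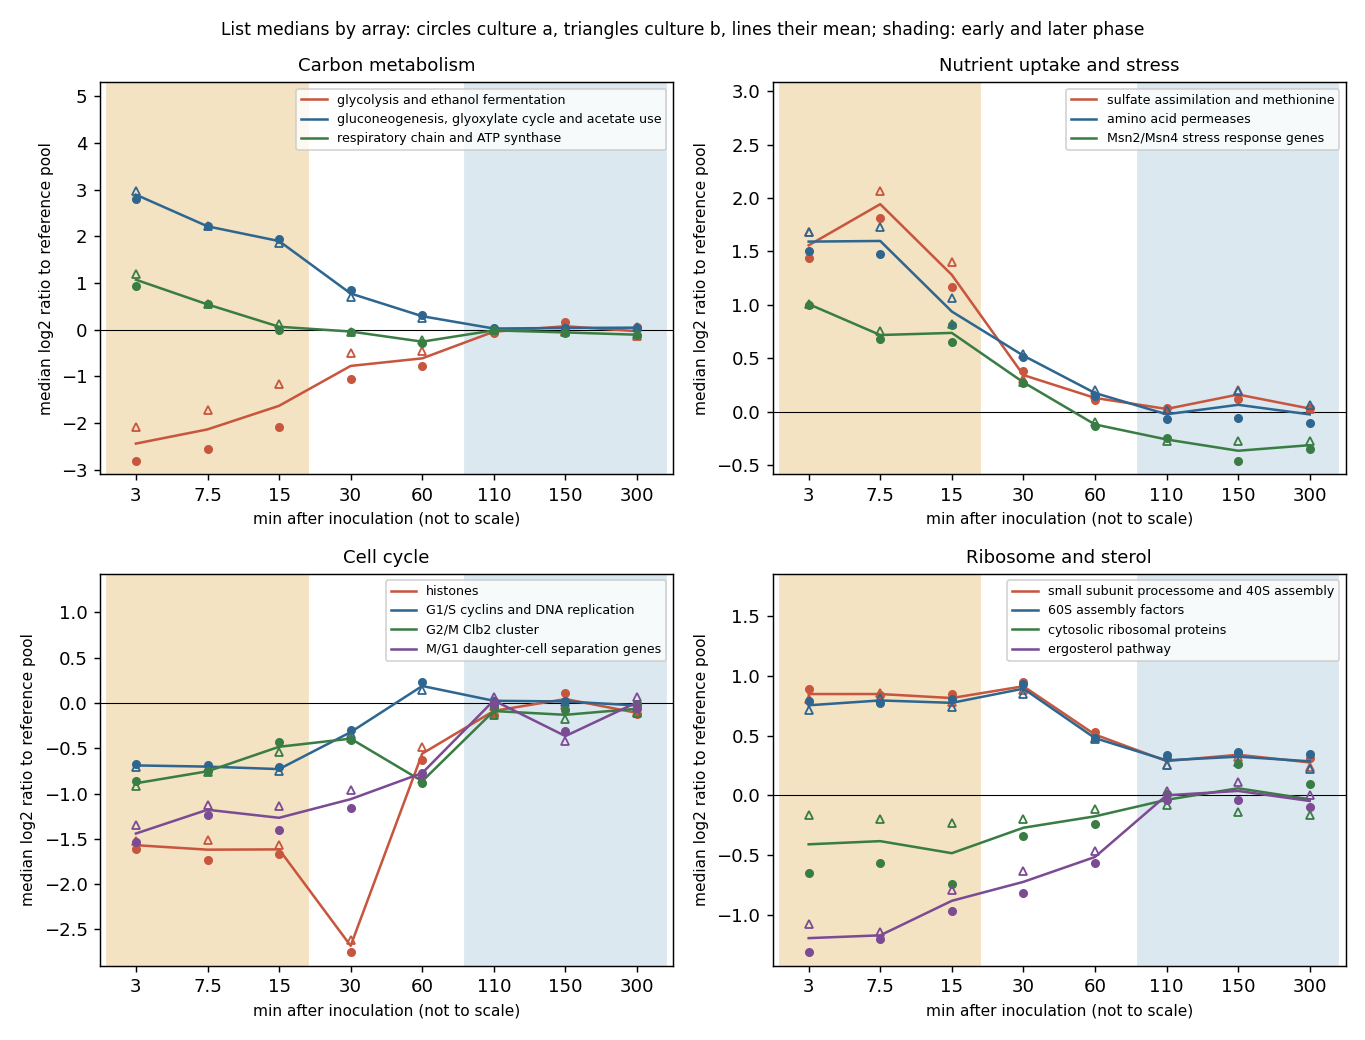
Median log2 ratio of sample to reference pool of the members of 14 gene lists on each array from 3 to 300 min, with circles for culture a, open triangles for culture b, lines for the mean of both and shading for the early and later phases. The respiratory list falls from 1.07 at 3 min to 0.062 at 15 min, the histones reach -2.68 at 30 min, and most lists lie near 0 from 110 min on.

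Genes for the uptake of nitrogen sources were among the largest differences. MEP2, the high-affinity ammonium permease, had ratios of 3.35 to 5.06 (median 4.16) on the early arrays and -0.24 to 0.28 (median -0.064) on the later arrays, a difference of 4.18 ± 0.23 (adjusted p = 2.88e-09 in limma). GAP1, the general amino acid permease, ran at 3.58 to 4.49 (median 3.91) on the early arrays and -0.26 to -0.027 (median -0.21) on the later arrays, a difference of 4.10 ± 0.13 (adjusted p = 2.66e-11 in limma). The lowest early array was far above the highest later array for both, and the rule that named them required phases without overlap. The urea transporter DUR3 (3.73 ± 0.13), the proline oxidase PUT1 (3.87 ± 0.13) and the NAD-dependent glutamate dehydrogenase GDH2 (3.67 ± 0.16) are needed to use poor nitrogen sources and had differences of similar size. ARO10, a decarboxylase of amino acid breakdown, had 3.56 ± 0.22.

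Of 21 amino acid permeases tested 15 were higher early and 0 lower early, with a median of 1.27. AGP1, a permease for many amino acids, ran at 2.62 to 4.26 (median 3.69) on the early arrays and -0.38 to 0.20 (median -0.10) on the later arrays. The permease for glutamate and aspartate, DIP5, differed by 3.43 ± 0.19 and that for gamma-aminobutyrate, UGA4, by 2.94 ± 0.18. UGA4 rose within the early phase, from 2.28 at 3 min to 3.22 at 15 min (adjusted p = 8.47e-04 in limma), whereas AGP1 went from 3.99 to 2.76. By 60 min the list median was 0.18.

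Amino acid synthesis was less uniform, with 26 of 63 members higher early, 3 lower early and a median of 0.45. Its largest named members belonged to the arginine branch. ARG3, the ornithine carbamoyltransferase, ran at 3.12 to 4.12 (median 3.59) on the early arrays and -0.45 to 0.051 (median -0.21) on the later arrays, a difference of 3.82 ± 0.15 (adjusted p = 1.51e-10 in limma). ARG8 and ARG4, the acetylornithine aminotransferase and the argininosuccinate lyase, differed by 3.23 ± 0.10 and 2.63 ± 0.19. GDH3, a glutamate dehydrogenase expressed in the absence of glucose, had 3.01 ± 0.13. GCN4, the activator of amino acid synthesis, which is controlled mainly through translation, was called at 0.85 ± 0.18, but its early and later arrays overlapped, and the call was lost without the 3 min or the 7.5 min array of culture b (0.76 and 0.73). HIS3, the marker gene of histidine synthesis, was higher early by 1.0 ± 0.12. With the external control scaling 15 members were higher early, and GCN4 and HIS3 were not called.

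Sulfur assimilation and methionine synthesis had 23 of 31 members higher early, 0 lower early and a median of 1.68. STR3, which makes homocysteine from cystathionine, ran at 2.34 to 4.10 (median 3.88) on the early arrays and -0.10 to 0.29 (median 0.0044) on the later arrays, a difference of 3.40 ± 0.31 (adjusted p = 3.73e-07 in limma). The sulfate permease SUL1 ran at 2.02 to 3.90 (median 3.62) on the early arrays and -0.012 to 0.12 (median 0.0024) on the later arrays and differed by 3.25 ± 0.26. The transcription factors of the pathway, MET28 and MET32, differed by 3.21 ± 0.25 and 2.52 ± 0.17, and YCT1, a cysteine transporter, by 3.65 ± 0.079. The order in time differed between members. SUL1 rose from 2.39 at 3 min to 3.75 at 15 min (adjusted p = 0.0031 in limma), and STR3 fell from 3.97 to 2.36 (adjusted p = 7.95e-05 in limma). MET17, an auxotrophy marker gene of methionine synthesis, was far below the pool in both phases, with medians of -4.73 early and -4.95 later. Whether this low level had a part in the differences of the list was not tested.

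Phosphate and iron genes were higher early in part. Of 23 members of the phosphate regulon 8 were higher early and 0 lower early, 4 with the external control scaling. PHO89, a phosphate transporter coupled to sodium, ran at 3.79 to 4.21 (median 3.96) on the early arrays and -0.024 to 0.85 (median 0.16) on the later arrays, a difference of 3.72 ± 0.13, and still had a mean of 3.36 at 30 min. PHO84, the high-affinity phosphate transporter, differed by 2.38 ± 0.16, VTC3, of the polyphosphate polymerase, by 1.62 ± 0.12, and PHO4, the activator of the regulon, by 1.02 ± 0.095, a call lost with the external control scaling (0.72). Of 28 genes of iron uptake and use 10 were higher early and 2 lower early. FIT2, a cell wall protein that retains iron carriers, ran at 2.05 to 2.65 (median 2.29) on the early arrays and -0.86 to -0.21 (median -0.60) on the later arrays. ISU1, the scaffold of iron-sulfur clusters, differed by 2.53 ± 0.14, the siderophore transporter ARN1 by 2.21 ± 0.22 and the heme oxygenase HMX1 by 1.7 ± 0.084.

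Purine, pyrimidine and one-carbon genes had 6 of 35 members higher early and 10 lower early, beside 12.3% and 12.4% of all genes. The uridine permease FUI1 (1.84 ± 0.078) and the minor phosphoribosyltransferase URA10 (1.99 ± 0.22) were higher early. The dihydroorotase URA4 (-1.80 ± 0.13) and ADE17 of the final purine steps (-1.58 ± 0.15) were lower early.

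**Figure D3:**
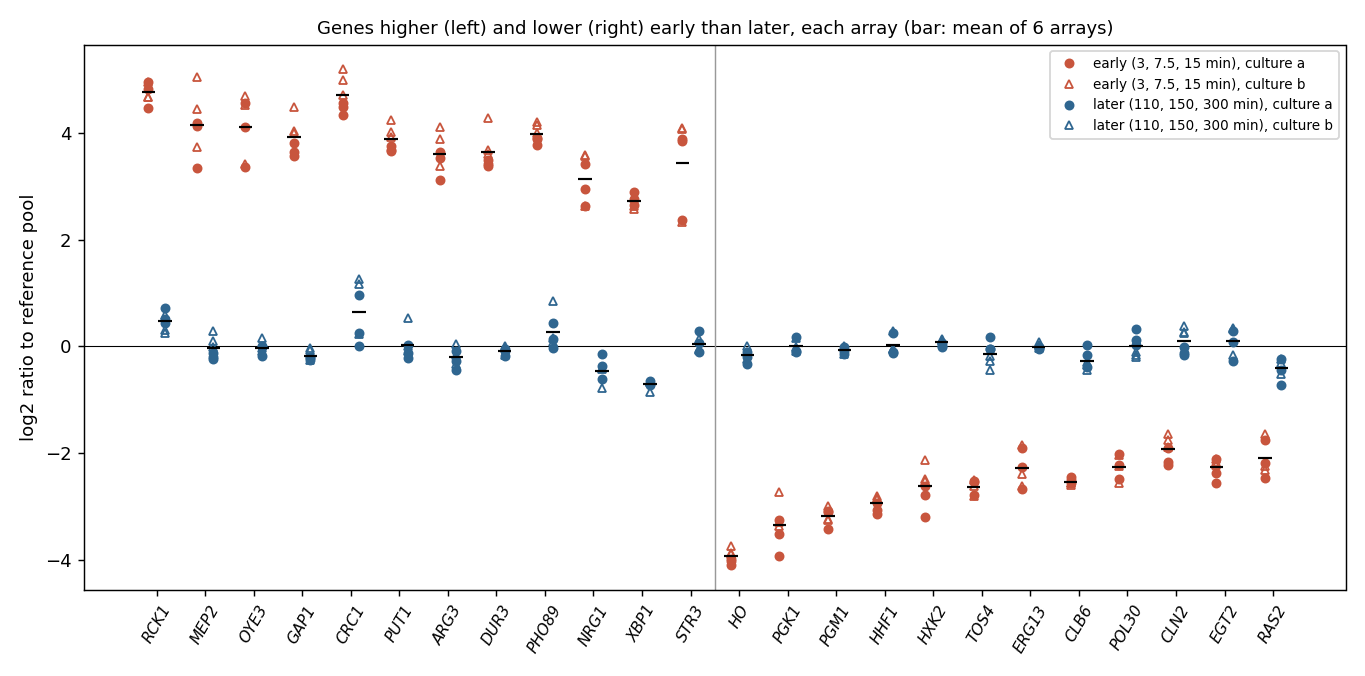
Log2 ratio to the reference pool on each of the 12 arrays for 12 genes higher early (left) and 12 lower early (right), red for early and blue for later arrays, filled circles for culture a, open triangles for culture b, and bars for the mean of 6 arrays. The genes were chosen among those without overlap of the phases, such as RCK1 with 4.47 to 4.96 early and 0.25 to 0.73 later.

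The largest difference of all genes named by rule belonged to RCK1, a protein kinase linked to the response to oxidative stress. Its ratios were 4.47 to 4.96 (median 4.76) on the early arrays and 0.25 to 0.73 (median 0.47) on the later arrays, a difference of 4.29 ± 0.10 (adjusted p = 2.06e-12 in limma), and it was still at 2.84 at 60 min. OYE3, an NADPH oxidoreductase induced by oxidants, ran at 3.36 to 4.70 (median 4.32) on the early arrays and -0.18 to 0.16 (median -0.018) on the later arrays and had come down to 0.87 at 30 min. Also among the 20 largest differences named by rule in this direction were RTS3 (3.67 ± 0.17), BDH2 (3.54 ± 0.09) and FMP48 (3.46 ± 0.18). Like RCK1 and others of the 20, they belong to no list used here. In the oxidative defence list 8 of 34 genes were higher early and 3 lower early, and 6 in each direction with the external control scaling. Among them were the aldehyde-reducing alcohol dehydrogenase ADH7 (2.04 ± 0.047), the mitochondrial cytochrome c peroxidase CCP1 (1.59 ± 0.075) and GSH1, the first enzyme of glutathione synthesis (1.54 ± 0.22).

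Genes of the general stress response, which the factors Msn2 and Msn4 activate, were higher early in 27 of 40 cases and lower early in 1, with a median of 1.05. XBP1, a repressor that is induced by stress and starvation, ran at 2.58 to 2.89 (median 2.71) on the early arrays and -0.86 to -0.65 (median -0.69) on the later arrays, a difference of 3.43 ± 0.061 (adjusted p = 3.53e-13 in limma). SPI1, a cell wall protein, ran at 2.73 to 3.36 (median 2.99) on the early arrays and -0.57 to 0.29 (median -0.37) on the later arrays. TMA10 and ECM4 differed by 3.01 ± 0.26 and 2.93 ± 0.11. Not all well-known members followed. The small heat shock protein gene HSP12 ran at 0.87 to 1.57 (median 1.31) on the early arrays and 0.094 to 1.32 (median 0.50) on the later arrays, with overlapping phases and a difference of 0.66 ± 0.19 that missed the fold threshold. HSP104, the disaggregase, was at 0.88 at 3 min and -0.36 at 15 min, so that its phases overlapped, its difference was 0.96 ± 0.30 with an adjusted p of 0.0095 in limma, and leaving out any 1 of 9 of the 12 arrays ended its call. With the external control scaling 20 of the 40 were higher early and 3 lower early.

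Stationary-phase genes had 12 of 20 members higher early and 1 lower early, with a median of 0.90. SNZ1 and SNO1, neighbours that act together in vitamin B6 synthesis, ran at 3.61 to 4.27 (median 3.98) on the early arrays and -0.35 to 0.90 (median 0.24) on the later arrays and at 3.08 to 3.85 (median 3.46) on the early arrays and -0.22 to 0.65 (median 0.26) on the later arrays. Their differences were 3.68 ± 0.19 and 3.28 ± 0.16. SPG4, needed for survival in stationary phase, differed by 3.44 ± 0.24 and still had a mean of 1.7 at 60 min. FMP16, a mitochondrial protein of stationary phase, differed by 2.70 ± 0.17.

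Of 38 chaperone genes 2 were higher early and 7 lower early, beside 12.3% and 12.4% of all genes tested. The 2 were SSA4, the stress-induced Hsp70 (2.77 ± 0.13), and BTN2 (1.26 ± 0.18), which gathers misfolded proteins. SBA1, a co-chaperone of Hsp90, was lower early by -1.28 ± 0.18. Of 35 proteasome genes 1 was higher early and 2 lower early. The former was RPN4 (1.08 ± 0.15), the activator of the others, and the latter the core subunits PRE2 (-0.84 ± 0.11) and PRE3 (-0.84 ± 0.16), whose calls were lost without the 3 min arrays, that of PRE3 also without the 3 min array of culture a alone (-0.74). With the external control scaling 14 of the 35 were lower early. In autophagy 4 of 28 were higher early and 1 lower early, beside 12.3% and 12.4% of all genes tested. The list median was -0.029, and 15 of the 28 had a negative difference. With the external control scaling 2 were higher early and 4 lower early. Among the 4 higher early were ATG1 (1.32 ± 0.13), the kinase that starts the process, and ATG8 (1.22 ± 0.089), the protein of the growing membrane. VPS15 was lower early by -1.21 ± 0.10.

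Most genes in the list of glucose signalling differed little. Of 49 tested 7 were higher early and 3 lower early, shares close to or below those of all genes, and their median was 0.21 and changed sign to -0.082 with the external control scaling. The largest difference belonged to NRG1, a repressor of glucose-repressed genes, with 2.63 to 3.59 (median 3.19) on the early arrays and -0.78 to -0.14 (median -0.41) on the later arrays and a difference of 3.59 ± 0.18 (adjusted p = 1.76e-09 in limma). RAS2, the main GTPase upstream of protein kinase A, was lower early, with -2.46 to -1.64 (median -2.22) on the early arrays and -0.73 to -0.23 (median -0.38) on the later arrays and a difference of -1.69 ± 0.14 (adjusted p = 1.54e-07 in limma). IRA2, the GTPase-activating protein that switches Ras off, was higher early by 1.48 ± 0.052, and PDE2, the high-affinity phosphodiesterase that removes cAMP, by 1.31 ± 0.12. SFP1, an activator of ribosome genes, was higher early by 0.93 ± 0.052, which became 0.63 and was not called with the external control scaling. The glucose repressor MIG1 had 0.52 ± 0.088 and missed the fold threshold. SRV2, which the authors describe as associated with adenylate cyclase, is not in this list and was lower early by -2.35 ± 0.14.

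Genes of the division cycle were lower early, and members of all 4 cycle lists described here were called in that direction only. Histones had the lowest median of them, -1.5, with 9 of 10 genes lower early. HHF1, a histone H4 gene, ran at -3.15 to -2.80 (median -2.90) on the early arrays and -0.13 to 0.28 (median -0.052) on the later arrays, a difference of -2.98 ± 0.089 (adjusted p = 1.93e-11 in limma). Its partner HHF2 differed by -2.81 ± 0.13, but these gene copies are nearly identical and their probes may read both. The H3 gene HHT1 differed by -1.54 ± 0.073, the variant H2A.Z gene HTZ1 by -1.46 ± 0.079, and HTA1, an H2A gene, by -0.82 ± 0.16. The HTA1 call was lost when the array of culture a at 15 min (-0.70) or that of culture b at 150 min (-0.74) was omitted. The minimum of the histones lay outside both phases. At 3, 15, 30 and 60 min the list median was -1.57, -1.62, -2.68 and -0.56.

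Of 51 genes of the G1 to S transition and DNA replication 21 were lower early and 0 higher early, with a median of -0.69. CLN2, a G1 cyclin, ran at -2.23 to -1.64 (median -1.90) on the early arrays and -0.16 to 0.39 (median 0.12) on the later arrays, a difference of -2.03 ± 0.12, and CLN1 differed by -1.94 ± 0.072. CLN3, the most upstream G1 cyclin, did not share this direction, with 0.43 to 1.07 (median 0.72) on the early arrays and -0.16 to 0.47 (median 0.24) on the later arrays, a difference of 0.54 ± 0.12 under the fold threshold and overlapping phases. The S-phase cyclin CLB6 (-2.27 ± 0.074), the replication clamp POL30 (-2.27 ± 0.11) and TOS4, a target of the G1 factor SBF (-2.50 ± 0.097), were lower early and at 0.11, 0.13 and 0.15 at 60 min. HO, the mating type endonuclease gene, which is transcribed in late G1 of mother cells, had the largest difference of the genes lower early. It ran at -4.11 to -3.75 (median -3.94) on the early arrays and -0.32 to 0.0094 (median -0.15) on the later arrays, a difference of -3.78 ± 0.07 (adjusted p = 3.53e-13 in limma), and at 60 min it was still at -2.22.

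The Clb2 cluster, expressed before and in mitosis, had 11 of 27 genes lower early and 0 higher early, with a median of -0.70. Its time course had an interruption. CLB2, the main mitotic cyclin, went through means of -1.86, -0.88, -0.96, -1.80 and 0.19 at 3, 15, 30, 60 and 110 min. CHS2, the chitin synthase of the primary septum, went through -2.76, -0.99, -0.99, -2.46 and -0.15 at these times. The septum proteins BUD4 and HOF1 were likewise lower at 60 min (-1.64 and -2.17) than at 30 min (-0.83 and -0.88). Between 3 and 15 min, 7 of the 27 genes rose and 0 fell. Both cultures had this course.

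Of 22 genes of the transition from mitosis to G1 18 were lower early and 0 higher early, with a median of -1.17. EGT2 and CTS1, which separate daughter from mother, differed by -2.36 ± 0.12 and -1.87 ± 0.11. AMN1, which ends mitotic exit signalling in daughters, ran at -2.4 to -1.92 (median -2.28) on the early arrays and -0.39 to 0.51 (median 0.11) on the later arrays, and the cell wall protein gene PIR1 at -2.58 to -2.21 (median -2.33) on the early arrays and -0.51 to 0.19 (median -0.022) on the later arrays. TUB1, the main alpha-tubulin, belongs to none of these lists and differed by -2.15 ± 0.12. The actin regulator SRV2 (-2.35 ± 0.14), the dipeptidase DUG1 (-2.30 ± 0.12) and ILM1 (-2.4 ± 0.097) were also among the 20 largest differences of the genes lower early.

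**Figure D4:**
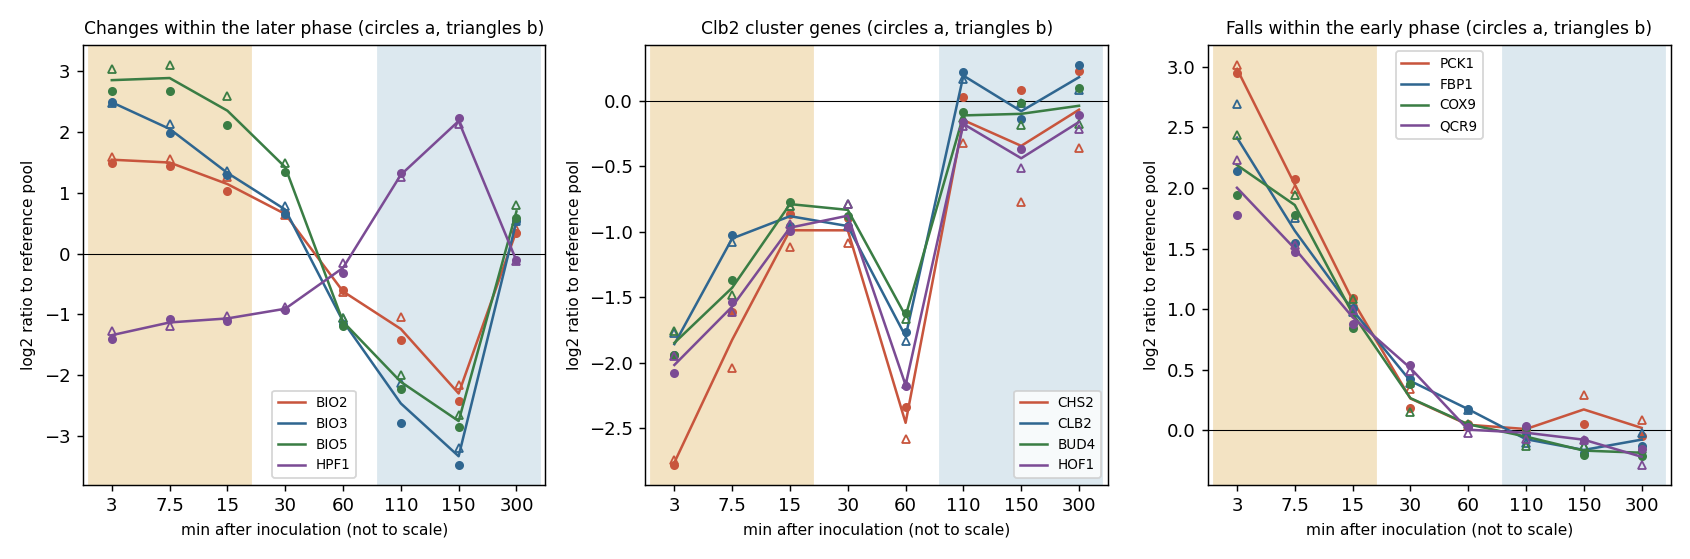
Log2 ratio to the reference pool from 3 to 300 min for genes that changed within a phase, with circles for culture a, open triangles for culture b, lines for their mean and shading for the early and later phases. The biotin gene BIO3 is at -3.33 at 150 min and 0.53 at 300 min, the Clb2 cluster gene CHS2 falls again to -2.46 at 60 min, and PCK1 goes from 2.98 at 3 min to 1.07 at 15 min.

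Ribosome assembly genes were higher early by small amounts. All 62 members of the small subunit processome and 40S assembly list had a positive difference, with a median of 0.53, but only 3 passed the fold threshold, below the share of all genes. These were RIO1 (0.94 ± 0.039), DIM1 (0.92 ± 0.064) and UTP15 (0.84 ± 0.043). Of 68 factors of 60S assembly 65 had a positive difference and 7 were called, among them ERB1 (0.88 ± 0.055) and SDA1 (0.87 ± 0.12). NOP2, an rRNA methyltransferase, was uniform within each phase, with 0.83 to 1.04 (median 1.0) on the early arrays and 0.27 to 0.43 (median 0.36) on the later arrays, and its difference of 0.61 ± 0.051 did not reach the fold threshold. These genes were above the pool in both phases. The medians of the small subunit list were 0.78 to 0.89 on the early arrays and 0.24 to 0.35 on the later arrays. With the external control scaling 0 of the 62 and 0 of the 68 were called, and the medians stayed positive at 0.23 and 0.17.

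The polymerases that transcribe rRNA and tRNA had 2 of 23 subunits higher early, RPA49 (0.93 ± 0.089) and RPC37 (0.82 ± 0.075), and 0 with the external control scaling. The count of 2 was below the 12.3% share of all genes tested. The largest subunits, RPA190 and RPO31, had 0.63 ± 0.081 and 0.51 ± 0.068, under the fold threshold. Genes of the ribosomal proteins themselves lay on the other side. Of 126 cytosolic ones 23 were lower early and 2 higher early, with a median of -0.44, and 53 were lower early with the external control scaling. The shift was mainly in culture a, whose list medians were -0.74 to -0.57 on the early arrays and 0.010 to 0.26 on the later arrays, whereas those of culture b were -0.23 to -0.17 and -0.16 to -0.084. In fits of each culture alone 53 members were lower early in culture a and 7 in culture b, and whether the dye had a part was not tested. Most are too abundant for the scanner range, and only 19 were measured on at least 4 arrays of each phase, of which 5 were lower early and 0 higher early. Examples are RPL4A (-1.05 ± 0.088), RPS20 (-1.01 ± 0.084) and RPS29A (-1.05 ± 0.15). RPS22B had the largest difference of those measured, with -2.85 to -1.13 (median -1.77) on the early arrays and -0.59 to 0.19 (median -0.14) on the later arrays and -1.68 ± 0.23. Its differences were -2.24 in culture a and -1.12 in culture b. RPS29A had -1.44 and -0.65 and was not called in culture b alone or with 1 loess curve per array (-0.46).

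Mitochondrial ribosomal proteins had a median of 0.16, which became -0.14 with the external control scaling, and 1 of 70 members, RSM22 (1.08 ± 0.092), was called higher early. Of 53 translation factors and tRNA synthetases 1 was higher early, the release factor SUP45 (1.09 ± 0.078, but 0.20 and not called with 1 loess curve per array), and 2 were lower early. These were TEF4, a subunit of elongation factor 1B (-1.42 ± 0.11), and GUS1, the glutamyl-tRNA synthetase (-1.14 ± 0.097). Counts of both lists were below the 12.3% and 12.4% of all genes tested.

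Among the lipid lists, the ergosterol pathway had 18 of 28 members lower early and 0 higher early, with a median of -1.12. ERG13, the synthase at the start of the mevalonate pathway, ran at -2.67 to -1.84 (median -2.33) on the early arrays and -0.058 to 0.084 (median -0.017) on the later arrays, a difference of -2.28 ± 0.13 (adjusted p = 5.12e-09 in limma). ERG9, the squalene synthase, differed by -1.71 ± 0.068, the farnesyl diphosphate synthase ERG20 by -1.76 ± 0.13 and the scaffold protein ERG28 by -1.77 ± 0.11. At 60 min their means were -1.15, -1.40, -1.40 and -1.90, so that none of these 4 had reached its later level.

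The list of fatty acid genes, which also holds the inositol synthesis gene INO1, was divided, with 3 of 19 higher early and 6 lower early. The desaturase OLE1 (-1.60 ± 0.13), the elongase ELO1 (-2.61 ± 0.12) and the acyl-CoA-binding protein ACB1 (-1.87 ± 0.081) were lower early. INO1, the inositol 3-phosphate synthase, was higher early, at 2.20 to 2.51 (median 2.37) on the early arrays and -1.07 to 0.17 (median -0.33) on the later arrays and a difference of 2.73 ± 0.16. In peroxisomal beta-oxidation 2 of 19 were higher early, CAT2 and the acyl-CoA oxidase POX1 (1.45 ± 0.066), and 1, the peroxisome division factor PEX11 (-0.85 ± 0.075), was lower early. Both counts were below the shares of all genes tested, 12.3% and 12.4%. Of 31 cell wall genes 9 were lower early, among them PLB2 (-2.32 ± 0.11), UTR2 (-1.98 ± 0.18) and EXG2 (-1.64 ± 0.11), and 3 were higher early. GSC2, the alternative glucan synthase subunit of starved and stressed cells, was one of these 3, with 2.68 to 2.97 (median 2.77) on the early arrays and 0.079 to 0.49 (median 0.13) on the later arrays and 2.60 ± 0.079.

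The times between the phases show how long the early pattern lasted. For the genes higher early, a median of 54.4% of the early minus later difference was left at 30 min and 16.4% at 60 min, and 362 of 649 genes at 30 min and 60 of 649 at 60 min were nearer to the early mean. For the genes lower early, 71.2% was left at 30 min and 29.0% at 60 min, with 517 and 192 of 655 genes nearer to the early mean. These shares describe genes chosen for that difference and were not tested.

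The phases were not uniform inside. Between 3 and 15 min 161 genes changed at the same thresholds, 115 of them among the genes called early against later. Of the genes higher early, 78 were lower at 15 than at 3 min, and of those lower early, 25 were higher at 15 min. The later phase was steadier, with 6 genes (0.114%) higher and 1 (0.019%) lower at 300 than at 110 min in limma (unadjusted p under 0.05 for 220 genes). All 7 are named here after their values were seen.

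Biotin genes made up 4 of these 7. BIO3 and BIO5, an enzyme and a transporter of the biotin pathway, had differences of 3.71 ± 0.68 and 4.08 ± 0.60 between the phases, but these averages cover opposite later values. At 3, 60, 110, 150 and 300 min BIO3 had means of 2.49, -1.11, -2.46, -3.33 and 0.53. BIO5 went through 2.85, -1.12, -2.11, -2.75 and 0.69. BIO2, the biotin synthase, and BIO4 were higher at 300 than at 110 min by 1.61 and 2.4 (adjusted p = 0.0018 and 1.37e-04 in limma). BIO4 was not called between the phases, with a difference of 1.33 ± 0.50 (adjusted p = 0.027 in limma). AAD10 and YJR154W rose by 1.66 and 1.96 between 110 and 300 min. The cell wall gene HPF1 had the opposite course, with 1.29 at 110 min, 2.18 at 150 min and -0.12 at 300 min.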

How the data were processed

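For every two-colour array the authors deposited scanner output, which gives mean intensity and background for 15552 spots in both channels, and a joint table of log2 ratios. According to the Methods, spots were quantified in ImaGene, background was not subtracted, and print-tip loess was the normalisation. The version of limma in the submitters' processing notes is 2.12.0. The deposited log2 ratios, turned to sample over reference by the labels, were used. They correlated at 0.866 to 0.980 with the scanner ratio of sample to reference on the 12 arrays. Medians of the gene spots were 771.5 to 1518 in Cy5 and 575.6 to 832.5 in Cy3. Precision is limited by how many arrays there are.

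Of 6388 gene probes 5326 carry a gene name. Of the distinct names 5255 are current symbols and 60 are older ones. Spots and probes of a gene were averaged. Mitochondrial genes (19 probes) and transposable elements (23 probes) were left out as in the Methods, which left 5272 genes. A model with the 2 phases was fitted with limma 3.58.1 in R 4.3.3 (lmFit, eBayes) and tested on simulated data beforehand. The thresholds are those of the Methods. The members and gene lists were chosen with earlier results of these data known.

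Named by rule were, among called genes whose phases did not overlap and whose spots were above background by 2 SD and below the saturation limit of 2 to the power 15 on at least 4 arrays of each phase, the 20 largest differences in each direction and up to 4 members of each of 38 lists. The rule also names a fixed set of genes whatever their value. Of these, HXK1 (0.10 ± 0.14) and MSN4 (0.21 ± 0.14) were not called. Differences between culture b and culture a correlated across genes between times at 0.368 to 0.902 (15 pairs of times), and the labels pair the arrays by culture. The main fit did not include this pairing, and the culture was used as a block in an alternative. Culture and dye coincide in these correlations. No genome sequence was used, and a planned description of promoter motifs was not run.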

Additional observations from a re-analysis of the deposited data

Results flagged for a closer look

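Single arrays stood apart from the other 5 of their phase for 14 (4.32%) of the 324 pairs of gene and phase examined. Dixon's test of the highest or lowest value was used. Chance gives about 1 in 20 for independent arrays, but arrays of a phase are successive times of 2 cultures, and the genes share arrays. The 2 shares therefore cannot show whether there was an excess. The array of culture b at 150 min accounted for 10 of the 14. Its log2 ratios were the highest of the later phase for ARO10 (1.58, with the other arrays up to 0.39), TMA10 (0.88), HAP4 (0.73), PUT1 (0.53), POX1 (0.38), SPI1 (0.29), IDH2 (0.25), SUL1 (0.12) and PHO84 (0.044), and the lowest for PRE3 (-0.29). Without this array 649 genes were higher early and 657 lower early, and of these genes only IDH2 lost its call. On the array of culture a at 150 min ILM1 was lowest at -0.12. The array of culture a at 300 min was highest for ARG8 at 0.15, that of culture b at 110 min lowest for XBP1 at -0.86, and that of culture b at 7.5 min highest for DUR3 at 4.29.

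Of 1062 gene probes without a name, which the comparison left out, 91 were higher early and 59 lower early when they were fitted together with the named genes. They are not identified here.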

How the results depend on the processing

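Over the 34 alternatives 162 named genes were followed, 151 of them called. Of the 151, 25 lost the call in at least 1 alternative. Of the other 11, 10 gained a call, and all 10 did so without a fold threshold. With the culture as a replicate block 650 genes were higher early and 658 lower early, and no named gene changed its call. With means of each culture and phase as the unit, in a fit with the replicate block, the counts were 646 and 640. Scaling the arrays to the 4 bright external control probes gave 395 higher and 1213 lower early, and in the gene lists, list members lower early numbered 294 in place of 181. Of the named genes 15 then lost their call, all of them higher early. Without a fold threshold 1797 genes were higher and 1706 lower early. Every other alternative kept both counts within 1.5 times. Leaving out 1 array at a time gave 621 to 670 genes higher early and 628 to 687 lower early, and leaving out both arrays of a time 603 to 694 and 630 to 701. With gene probes without a name included, an alternative added after the data were seen, there were 739 and 714. The direction of 1 of the 162 genes turned, HSP12, which had -0.14 in the comparison of 7.5 with 110 min alone. The HSP104 call was lost in 18 alternatives, and those of IDH2 and TPS1 in 8 each. With 1 loess curve per array 10 of the 162 genes lost the call and 2 gained one. Those lost were DIM1, UTP15, ERB1, RPA49, RPS29A, SUP45, PHO4, LPD1, TPS1 and HSP104. Signals above the saturation limit bound the differences of glycolytic and ribosomal protein genes, and 2 cultures are the only independent units.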

Other observations

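Of the auxotrophy marker genes, LYS2 and MET17 were far from the pool in both phases. LYS2 ran at 3.12 to 3.87 on the early and 3.44 to 4.45 on the later arrays, and MET17 at -5.18 to -4.68 and -5.26 to -4.85. Neither was called early against later. LEU2 had means of -0.037 early and 0.0010 later and URA3 of -0.10 and -0.076. A ratio near 0 does not show whether a transcript was present in both sample and pool or absent from both. For 12 genes with more than 1 probe the probes were averaged, and those of PRM7 disagreed, with early minus later differences of 1.06 and -1.39.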
